A study of Mus musculus with 39 samples.

Results

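The comparison described here sets granulocytic (G) against monocytic (M) cells sorted from the spleens of BALB/c mice. It rests on 6 of the 39 libraries of the series, the 3 whose titles name the splenic G sort of BALB/c mice and the 3 whose titles name the M sort, while the combined sorts of both cell types were not used. The labels give the sorted cells as granulocytic or monocytic myeloid-derived suppressor cells. The labels give the mice as BALB/c with an immune deficiency, without naming the deficiency, an allele, a treatment or an age. For the comparison across sites, G and M sorts from the bone marrow of C57BL/6 mice labelled newborn P7 (6 libraries) and from the spleens of APCmin/+ mice (6 libraries), which carry a mutant Apc allele and develop intestinal tumours, were also used. The surface markers used for sorting, whether animals were pooled, and whether the 3 libraries of a group came from separate animals are not stated in the labels, so p-values measure only the spread between libraries, which may be technical.

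Myeloid-derived suppressor cells are a functional category of immature or activated myeloid cells that restrain T cells. The granulocytic kind resembles neutrophils, short-lived cells that are released from marrow through the chemokine receptor CXCR2, store proteases and antimicrobial proteins in granules laid down in sequence during maturation, and depend on the growth factor G-CSF. The monocytic kind resembles inflammatory monocytes, which leave marrow through CCR2, respond to interferons and can become macrophages or dendritic cells. In mice the spleen is a reservoir of both and a site where they are made outside the marrow in chronic inflammation and cancer. The spleen is also rich in B cells, T cells and red pulp macrophages.

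The values are TPM, transcript levels corrected for length and scaled to the same total in every library, which keep no read depth, so no counting interval is given. Each library had between 21701 and 22954 genes above 0. Across genes, log2(TPM + 1) correlated at 0.9785 to 0.9885 in pairs of libraries from the same sort and at 0.9365 to 0.957 in pairs from different sorts. The first principal component, with 66.3% of the variance, separated the sorts. The second, with 12.7%, set M library 3 (29.5) apart from M library 1 (-13.4) and M library 2 (-21), and list counts and named calls that change without M library 3 are given with and without it. Xist was between 384 and 488 TPM in all 6 libraries, while Ddx3y, on the Y chromosome, was at most 0.03.

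RNA of other splenic cells was present in both sorts. B cell transcripts were abundant in both. The 16 B cell genes listed (all 16 above the filter on low values) gave a sum of 45374 to 59823 TPM in the G libraries and 52034 to 56668 in the M libraries. Most of this was Ighm and Igkc, which plasma cells make too, and the other 14 genes gave 7403 to 7593 TPM in G and 4238 to 5799 in M. The 20 mature granulocyte genes gave 15534 to 22650 TPM in the G sort, and the 24 monocyte genes 8222.7 to 11194 in the M sort. The sum of the 18 resident macrophage genes was 7374.2 to 8813.7 TPM in G and 6259.9 to 8748.6 in M, lowest in M library 3. No gene of these 4 lists was at 0 in any of the 6 libraries. The part of these cells in the results below was not tested.

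The 4 marker genes set the sorts apart in the direction of their labels. Cxcr2, the neutrophil receptor for CXCL1 and CXCL2, was 326, 255 and 205 TPM in the 3 G libraries and 7.88, 3.69 and 13.8 in the M libraries. Mmp9, a gelatinase of neutrophil granules, was 290, 245 and 227 TPM in G and 14.2, 9.59 and 18.7 in M. Every G library lay far above every M library for both genes, with a log2 fold change (G minus M, on the log2(TPM + 1) scale) of 4.92 ± 0.39 (SE) for Cxcr2 and 4.11 ± 0.22 for Mmp9. F13a1, the catalytic chain of clotting factor XIII, was 1.32, 1.35 and 1.72 TPM in G and 168, 139 and 169 in M. Ccr2, the receptor for the monocyte chemoattractant CCL2, was 9.45, 6.88 and 14.1 TPM in G and 467, 368 and 752 in M. The means of F13a1 differed 109-fold and those of Ccr2 52.2-fold, with log2 fold changes of -6.02 ± 0.11 and -5.56 ± 0.31, and M library 3 held the highest level of Ccr2 and also the highest M level of Cxcr2 and Mmp9. Adjusted p-values from limma were 2.33e-04 for Cxcr2, 6.85e-05 for Mmp9, 2.14e-06 for F13a1 and 6.93e-05 for Ccr2. In bulk RNA, fewer cells of a type and less RNA of a gene per cell cannot be told apart.

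In the GENCODE annotation of GRCm38, the assembly also called mm10, Cxcr2 spans chr1:74153989-74161246 (+ strand), Mmp9 chr2:164940780-164955850 (+), F13a1 chr13:36867178-37050244 (-) and Ccr2 chr9:124101950-124113557 (+). The RefSeq promoter windows on GRCm38.p6, from 250 bases before to 50 bases after a start of transcription, are shown for the markers that have one, because these genes carry the largest differences between the sorts. A set of 3 short motifs of factors that act in these lineages were searched on both strands. They were GAGGAA, the core bound by PU.1 (a factor of all myeloid cells), TTGCNNAA, the palindrome bound by C/EBP factors (which drive granulocyte development), and the IRF element, GAAA repeated after any pair of bases, for IRF factors (which act in monocytes and in the interferon response). The windows are Cxcr2 at chr1:74153744-74154043 (+), F13a1 at chr13:37050195-37050494 (-) and Ccr2 at chr9:124101933-124102232 (+), written 5′ to 3′ in the direction of the gene, with matches in capitals. Mmp9 has no window in the table.
Cxcr2: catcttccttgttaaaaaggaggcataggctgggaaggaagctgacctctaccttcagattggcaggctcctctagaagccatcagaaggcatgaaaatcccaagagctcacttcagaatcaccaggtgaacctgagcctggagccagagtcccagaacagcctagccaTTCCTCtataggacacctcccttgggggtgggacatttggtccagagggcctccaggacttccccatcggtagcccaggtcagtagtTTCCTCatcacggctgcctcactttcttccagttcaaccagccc
F13a1: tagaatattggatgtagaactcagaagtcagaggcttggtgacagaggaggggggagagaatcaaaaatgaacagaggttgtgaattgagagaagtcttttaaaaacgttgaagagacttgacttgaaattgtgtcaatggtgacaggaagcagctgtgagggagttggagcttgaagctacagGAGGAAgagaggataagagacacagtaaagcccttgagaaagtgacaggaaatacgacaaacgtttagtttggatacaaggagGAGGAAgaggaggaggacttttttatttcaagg
Ccr2: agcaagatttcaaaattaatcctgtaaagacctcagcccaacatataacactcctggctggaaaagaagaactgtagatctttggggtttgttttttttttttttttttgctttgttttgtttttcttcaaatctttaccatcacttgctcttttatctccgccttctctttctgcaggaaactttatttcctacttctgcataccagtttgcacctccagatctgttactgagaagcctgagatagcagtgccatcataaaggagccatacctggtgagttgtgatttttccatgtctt
The capitals mark 2 matches to GAGGAA on the opposite strand (read as TTCCTC) in Cxcr2 and 2 on the gene's strand in F13a1. None of the 3 motifs was found in the window of Ccr2, and neither of the other two in any of the 3 windows, which says nothing about binding. Of the 27025 promoter windows in the table (1 per gene), 28.3% held GAGGAA, 10.8% TTGCNNAA and 3.49% the IRF element on either strand. A comparison of these shares between genes higher in G and genes higher in M is void, because windows could be matched for 57.1% of the former (180 of 315) and 67.3% of the latter (401 of 596).

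Across all genes, 911 of the 14268 tested (6.38%) met the rule by which a gene is called below, an adjusted p under 0.05 together with a difference of 2-fold or more. Of these, 315 (2.21% of genes tested) were higher in G and 596 (4.18%) in M. The counts of called list members given below are read against these shares. Without the fold minimum, 33.9% of genes had an adjusted p under 0.05, with 8.51% higher in G and 25.4% higher in M, and in 48.9% of genes the 3 libraries of one sort all lay above those of the other. The median log2 fold change of all genes was -0.09, and rescaling each library by its median ratio shifted this by 0.11, so small differences of many genes in one direction are read against that shift. Without M library 3, 880 genes were called, 308 higher in G and 572 in M.

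**Figure D1:**
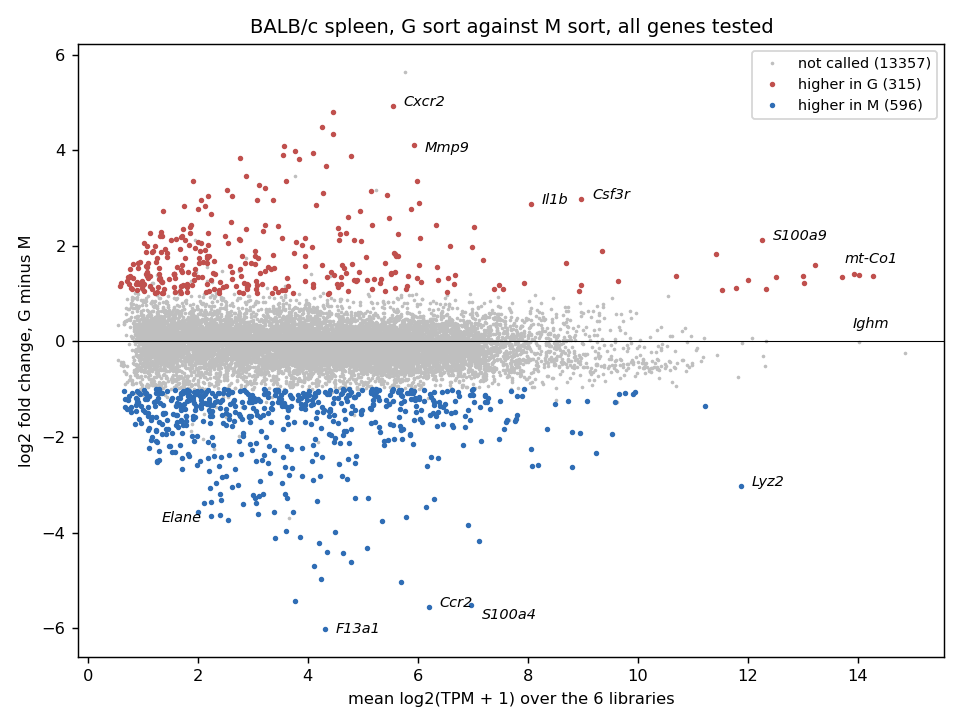
Log2 fold change (G minus M) of all 14268 genes tested against their mean log2(TPM + 1) over the 6 libraries, with genes called higher in G in red, genes called higher in M in blue and genes not called in grey. Differences above 4 in size occurred in both directions, and mitochondrial transcripts, S100a9 (higher in G) and Lyz2 (higher in M) were among the most abundant called genes.

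The 12 genes with the largest increases in the G sort were Cxcr2, Stfa2l1, Il1f9, Mmp9, Steap4, Cd101, Asprv1, Mirt2, Hdc, Dhrs9, Phospho1 and Nlrp12. A fixed rule chose them among called genes without overlap and with a mean of at least 20 TPM. It left out provisional symbols, among them a member of the stefin list with a log2 fold change of 4.34. Stfa2l1, a stefin that inhibits cysteine proteases, was 153, 105 and 93.7 TPM in G and 3.83, 0.89 and 6.89 in M. Il1f9, an interleukin-36 cytokine, was 107, 82 and 82.3 TPM in G and 2.74, 1.2 and 6.95 in M. In these genes, as in Cxcr2, G library 1 was highest and M library 2 lowest. Cd101, a surface protein that marks mature neutrophils, was 69.6, 51.1 and 42.2 TPM in G and 2.52, 1.57 and 3.34 in M, a log2 fold change of 3.99 ± 0.24. Hdc, the enzyme that makes histamine, was 127, 104 and 86.6 TPM against 5.88, 5.41 and 7.43 (3.88 ± 0.16). Nlrp12, a cytosolic receptor that dampens inflammatory signalling, was 49.6, 38.4 and 28.9 TPM against 2.79, 2.74 and 2.91, the tightest M group of the 12. The remaining genes, the metalloreductase Steap4, the protease Asprv1, the non-coding RNA Mirt2, the retinol dehydrogenase Dhrs9 and the phosphatase Phospho1, had log2 fold changes between 3.67 and 4.09. G library 1 held the highest and G library 3 the lowest level of each of the 12 genes except Il1f9, in which G library 2 was lowest.

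By the same rule, the 12 genes with the largest increases in the M sort were F13a1, Ccr2, S100a4, Arhgef37, Ccl9, Cx3cr1, Tppp3, Ace, Ptpro, Msr1, Ms4a4a and Nupr1. S100a4, a calcium-binding protein linked to cell motility, was 15.7, 16.6 and 21.1 TPM in G and 887, 715 and 972 in M (-5.51 ± 0.15). Ccl9, a chemokine made by myeloid cells, was 8.26, 6.13 and 10.2 TPM in G and 261, 219 and 452 in M. Cx3cr1, the fractalkine receptor of patrolling monocytes, was 2, 2.27 and 2.91 TPM in G and 117, 97.2 and 99.5 in M (-4.96 ± 0.13). These 3 genes differed 48.2-fold, 38-fold and 43.7-fold between the means, and M library 3 was highest for S100a4 and Ccl9 but not for Cx3cr1. Ace, the angiotensin-converting enzyme, was 3.55, 3.44 and 7.64 TPM against 122, 100 and 212, and Msr1, a scavenger receptor of macrophages, 2.78, 3.44 and 4.09 against 89.3, 76 and 119. Arhgef37, a predicted guanine nucleotide exchange factor, was 0.94, 0.8 and 1.58 TPM against 87.2, 73.7 and 111, the largest ratio after F13a1. For the tubulin-binding Tppp3, the receptor phosphatase Ptpro, the membrane protein Ms4a4a and the stress-induced regulator Nupr1, log2 fold changes lay between -4.69 and -4.22.

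**Figure D2:**
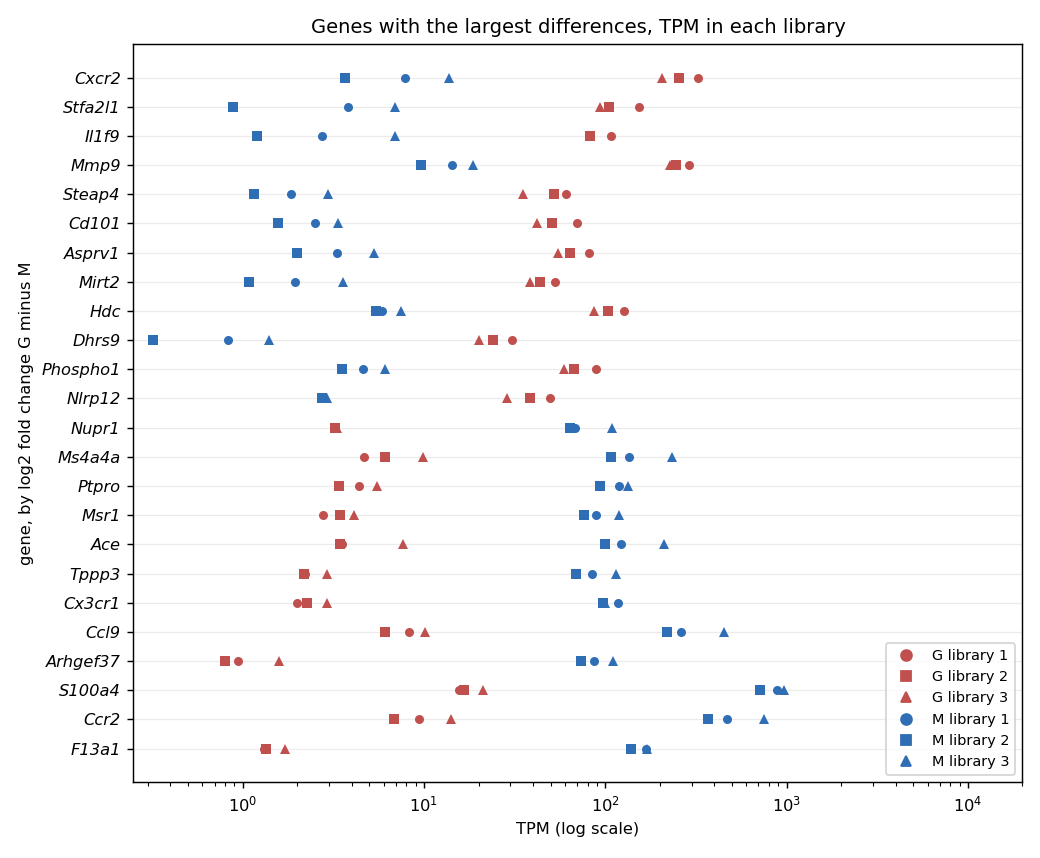
TPM on a log axis of the 12 genes with the largest increases in each sort, with 1 point per library (red, G; blue, M; circles, squares and triangles are libraries 1, 2 and 3). Provisional symbols were left out. The groups do not overlap for any of these genes, and M library 3 is the highest M library for every gene shown except Cx3cr1.

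The mature granulocyte list had 20 genes, of which 15 were called higher in G and none in M (median log2 fold change 1.98, against -0.09 for all genes, of which 2.21% were called higher in G). S100a9, which pairs with S100a8 to form calprotectin, was 11512, 11769 and 7944 TPM in G and 2174, 2717 and 2172 in M (2.13 ± 0.18). Csf3r, the G-CSF receptor, was 1854, 1409 and 1094 TPM against 180, 142 and 221 (2.99 ± 0.22). The groups were well apart for both, and both were lowest among G libraries in G library 3. Mxd1, a repressor of the Max network found in mature granulocytes, was 210, 177 and 148 TPM against 21.9, 23.9 and 22.4 (2.90 ± 0.13). Trem1, an amplifier of inflammatory signalling, was 34.1, 26 and 23.2 TPM against 1.76, 1.91 and 2.58. Of the 5 that were not called, Retnlg, a resistin-like protein, was 678, 703 and 802 TPM in G and 599, 598 and 282 in M (0.64 ± 0.28, adjusted p = 0.126), while the protease inhibitor Slpi and the formyl peptide receptor Fpr1 had log2 fold changes of 0.52 and 0.98 with adjusted p-values of 0.00971 and 0.00466, under the fold minimum. Of 8 genes of the stefin list, inhibitors of cysteine proteases, 5 were called higher in G and 1 lower. The latter was the cystatin Cst3, whose call was lost without M library 3 (-0.93), with rescaling (-0.92) and without mitochondrial, immunoglobulin and globin genes in the totals (-0.97). Cstb was also lower in G, under the fold minimum (-0.64 ± 0.10). With the abundant Cst3 included, the list summed to 982.6 to 1054.7 TPM in G and 1315.7 to 1796.3 in M, without overlap. The stefin A genes are near copies of each other, so their levels are uncertain where reads were shared among them.

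Calls among granule genes differed in part by the stage at which the granule is made. None of the 7 genes of primary granules that passed the filter was called higher in G. In M, 4 were called higher (median -2.05), or 5 without M library 3. The most abundant member, Serpinb1a, went the other way, under the fold minimum. It was 208, 229 and 194 TPM in G and 151, 176 and 138 in M (0.44 ± 0.10, adjusted p = 0.0162 by limma). The summed TPM of the list overlapped between the sorts. Elane, neutrophil elastase, was 0.73, 0.36 and 0.42 TPM in G and 11.3, 24 and 20 in M, and Mpo, myeloperoxidase, was 0.39, 0.44 and 1.12 against 8.54, 20.1 and 11.5. For both, the G libraries lay between 0.36 and 1.12 TPM, and M library 1 was the lowest M library. Prtn3, proteinase 3, was 1.28, 1.61 and 2.76 TPM against 16.4, 28.4 and 35.6. Ctsg, cathepsin G, was 0.13, 0 and 0.14 TPM against 1.99, 5.41 and 3.81, a fall of 2.05 on the log2 scale. Elane, Mpo and Ctsg passed the filter through the M libraries, so the count of members higher in M includes genes near the floor in G. Of 16 genes of secondary and tertiary granules, which are made later, 8 were higher in G and 1 in M (median 1.03), and 7 and 1 without M library 3. Ltf, lactoferrin, was 1191, 1712 and 978 TPM in G and 351, 459 and 244 in M (1.89 ± 0.27), and Lcn2, an iron-trapping lipocalin, was 718, 972 and 569 against 253, 275 and 183. G library 2 was highest for both, as it was for Ngp, a neutrophil granule protein with 2015, 2884 and 1547 TPM against 1093, 1337 and 850, which missed the fold minimum (0.95 ± 0.25). Camp, the cathelicidin, was 762, 1125 and 569 TPM against 466, 586 and 385, with overlapping libraries (adjusted p = 0.064). Olfm4, Mmp8, Padi4 and Adam8, which encode an olfactomedin, a collagenase, a histone-citrullinating enzyme and a sheddase, rose by 2.11, 1.86, 1.46 and 1.33, and Adam8 stood at the fold minimum without M library 3 (1.0). Chil3, a chitinase-like protein also made by monocytes and macrophages, was the member higher in M, at 149, 212 and 127 TPM against 313, 358 and 389, and fell below the fold minimum without G library 3 (-0.98). Leaving out G library 1 or 2, or M library 1 or 2, a second member was called higher in M.

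Of the 24 monocyte genes, 17 were called higher in M and none in G (median -1.57, and 4.18% of all genes called higher in M), and 16 without M library 3. Fn1, fibronectin, was 29, 34.6 and 32.4 TPM in G and 570, 482 and 750 in M (-4.17 ± 0.16). Ms4a6c, a membrane protein of the MS4A family, was 25.1, 29.5 and 40.5 TPM against 419, 355 and 642. Ly6c2, which encodes the Ly6C antigen of inflammatory monocytes and shares reads with Ly6c1, was 103, 126 and 127 TPM against 677, 587 and 932 (-2.60 ± 0.17). The lowest M library exceeded the highest G library for each of these genes. Csf1r, the receptor for M-CSF on which monocytes and macrophages depend, differed far less, at 482, 529 and 591 TPM in G and 729, 693 and 611 in M (-0.34 ± 0.10, adjusted p = 0.0364), and was not called. Pld4, an exonuclease of endolysosomes, was 413, 417 and 424 TPM against 800, 711 and 844 (-0.90 ± 0.08), also under the fold minimum. Macrophages of the spleen express Csf1r too, and their genes, such as C1qa below, were present in both sorts. Their part in its level was not tested.

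Genes of the lysosome and of blood clotting, functions tied to monocytes and macrophages, followed the M sort in part. Of 20 lysosomal genes 4 were higher in M (median -0.70), Lyz2, Psap, Npc2 and Ctss, and 3 without M library 3, where Ctss, cathepsin S, was at -0.95 (-0.96 with rescaling). Lyz2, lysozyme, was 1296, 1608 and 1093 TPM in G and 10228, 8876 and 13719 in M (-3.03 ± 0.20), and Psap, the precursor of the saposins, was 1469, 1472 and 1546 against 3759, 3271 and 4600. Ctsd, cathepsin D, went the other way with 530, 499 and 515 TPM against 349, 361 and 291, below the fold minimum (0.63 ± 0.09). Of 13 clotting and plasminogen genes 7 were higher in M and none in G (median -1.42). Besides F13a1 and Fn1 these were F10, clotting factor X, at 1.27, 1.4 and 2.12 TPM against 25.9, 19.5 and 34.3, the anticoagulant cofactor Pros1 at 1.56, 1.15 and 1.39 against 16.2, 15.6 and 22.7, and Thbs1, Thbd and Serpinb2, which encode thrombospondin, thrombomodulin and an inhibitor of plasminogen activators. Plaur, the urokinase receptor, was 90.6, 79 and 76.8 TPM against 99.7, 95.8 and 123 and was not called.

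**Figure D3:**
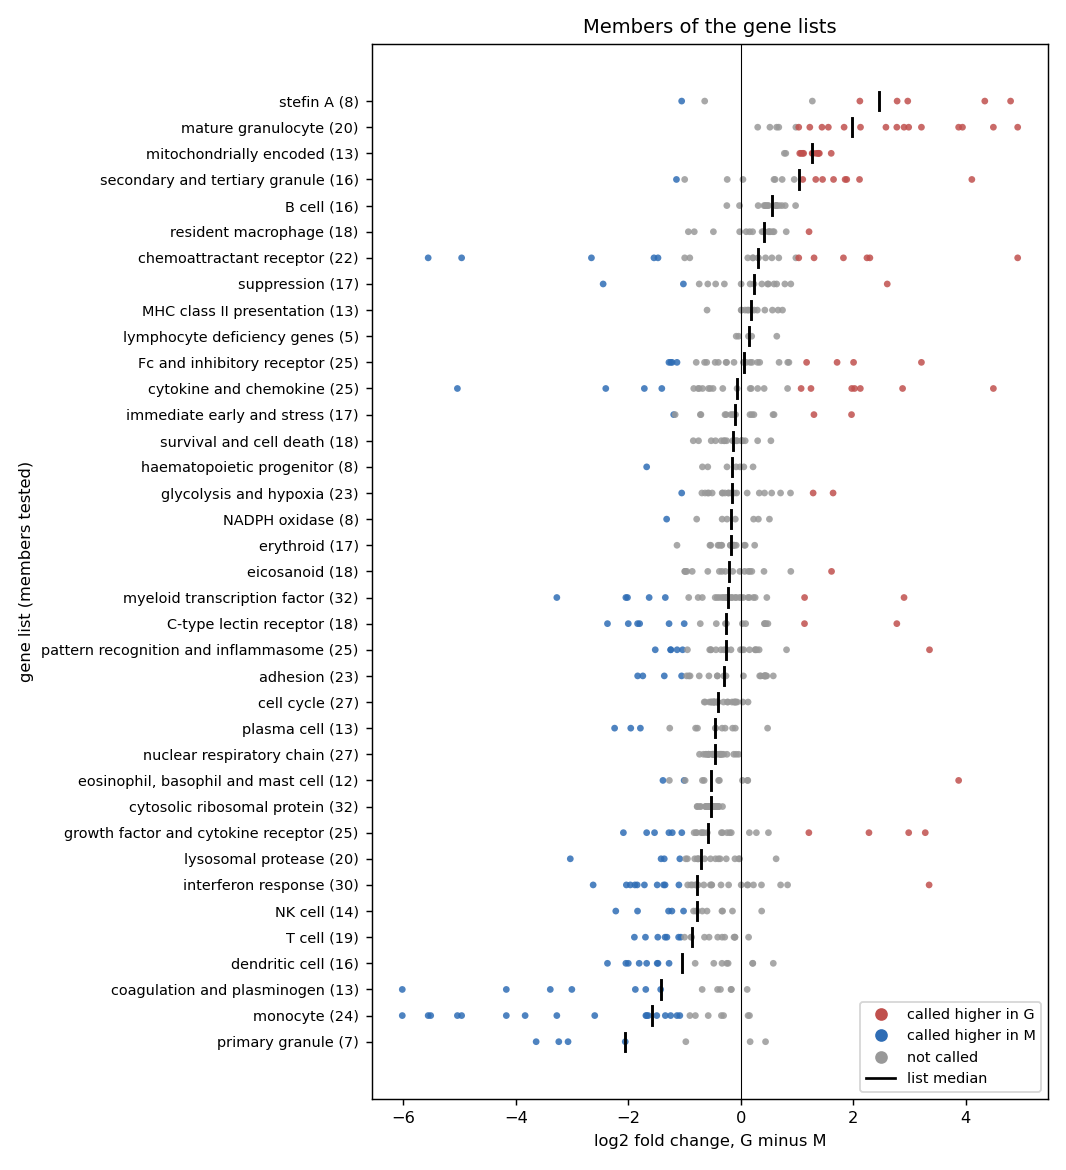
Log2 fold change (G minus M) of each member of the gene lists with at least 5 members tested, with members called higher in G in red, called higher in M in blue, and not called in grey, and the list median as a black bar. Stefins, mature granulocyte genes and mitochondrially encoded genes have the highest medians (2.45, 1.98 and 1.27), and primary granule, monocyte and clotting genes the lowest (-2.05, -1.57 and -1.42).

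Receptors for chemoattractants divided between the sorts, with 6 of 22 higher in G and 5 higher in M (median 0.31). Ccr1, a receptor for several CC chemokines, was 131, 103 and 93.5 TPM in G and 17.9, 16.9 and 35.3 in M (2.24 ± 0.27). C5ar1, the receptor for complement C5a, was 116, 91.8 and 69 TPM against 21.8, 20 and 34.5, and Ptafr, the receptor for platelet-activating factor, 79.8, 62.9 and 48.3 against 25.2, 22.8 and 26.1. Together with Cxcr2, Cxcr1 and Fpr2 these made up the members higher in G, and Fpr2 stood under the fold minimum without G library 2 (0.97) or M library 1 (0.98). Ccr9, a receptor of gut-homing lymphocytes and plasmacytoid cells, was 2.76, 2.92 and 2.84 TPM in G and 8.92, 9.39 and 10.7 in M. Ccr2, Cx3cr1 and the complement receptor C3ar1 were also among the members higher in M. Cxcr4, the receptor for CXCL12 that retains cells in marrow, was 389, 298 and 320 TPM in G and 305, 230 and 334 in M, with overlapping libraries (0.22 ± 0.16, adjusted p = 0.33).

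Of the 25 cytokine genes that passed the filter, of 33 listed, 7 were higher in G and 4 in M (median -0.06, which turned to 0.05 with rescaling). Il1b, interleukin-1 beta, was 924, 678 and 595 TPM in G and 98.4, 67.4 and 138 in M (2.88 ± 0.27). Il1rn, which encodes the antagonist of the same receptor, was 70.6, 54.3 and 53.8 TPM against 12.1, 10.3 and 16.6 (2.13 ± 0.18). Csf1, which encodes M-CSF, was 35, 36.7 and 19.1 TPM against 6.28, 8.31 and 5, and Tnfsf14, the TNF family ligand LIGHT, 42.8, 34.4 and 23.2 against 7.55, 7.7 and 7.31. Thus the cytokine and its antagonist were both higher in the G libraries, without overlap. Ccl5, a chemokine also made by T and NK cells, was 11.4, 8.71 and 16.5 TPM in G and 56.3, 101 and 51.9 in M (-2.40 ± 0.30), highest in M library 2, which also held the most T and NK transcripts. The part of T and NK cells in the level of Ccl5 was not tested. Tgfb1, the suppressive cytokine TGF-beta 1, was 199, 184 and 184 TPM against 331, 311 and 306, below the fold minimum (-0.74 ± 0.06).

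Cytokine and growth factor receptors were higher in G in 4 of 25 members and in M in 6 (median -0.59). Il1r2, the decoy receptor for interleukin-1, was 31.5, 23.6 and 23.7 TPM in G and 1.35, 1.64 and 2.47 in M (3.28 ± 0.18), so that of the interleukin-1 genes the agonist, the antagonist and the decoy receptor were all called higher in G. Il18rap and Il1rap, accessory chains of the interleukin-18 and interleukin-1 receptors, rose by 2.28 and 1.21. Tnfrsf1b, the second TNF receptor, was 74.1, 68.7 and 62.8 TPM in G and 304, 264 and 315 in M (-2.09 ± 0.09), and Ifngr1, a chain of the interferon-gamma receptor, was 127, 127 and 135 against 378, 335 and 425 (-1.53 ± 0.09). Flt3, a receptor of dendritic cells and their precursors, was 2.63, 2.07 and 3 TPM against 10.2, 9.16 and 11.6. The interleukin-6 receptor chain Il6ra was 56.9, 51.5 and 50.1 TPM against 128, 115 and 147 (-1.28 ± 0.10).

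Of 22 genes tied to suppression of T cells, 17 passed the filter, 1 was higher in G and 2 in M (median 0.23), where 2.21% and 4.18% of all genes were. Arg2, a mitochondrial arginase, was 79.9, 62.8 and 52.7 TPM in G and 8.85, 9.15 and 11.3 in M (2.61 ± 0.16, adjusted p = 1.07e-04). Wfdc17, a small secreted protein of activated macrophages, was 35.8, 39 and 28.8 TPM against 174, 145 and 278 (-2.45 ± 0.24), and Havcr2, the inhibitory receptor TIM-3, was 5.27, 5.4 and 6.08 against 15.2, 12.4 and 9.89, a difference of -1.02 that fell below the fold minimum without M library 1 (-0.88) or G library 1 (-0.99), with rescaling (-0.91) and without mitochondrial, immunoglobulin and globin genes (-0.97). The enzymes most often named for suppression were at or under 1 TPM in all 6 libraries, with Arg1 between 0.3 and 0.95, Nos2 between 0 and 0.08 and Ido1 between 0.09 and 0.38. Il10 was between 0.27 and 0.46 TPM. Hmox1, a haem oxygenase that is also a mark of red pulp macrophages, was 1138, 1208 and 1337 TPM in G and 1045, 978 and 524 in M (0.59 ± 0.25, adjusted p = 0.113). Among eicosanoid genes, Alox5, the lipoxygenase that starts leukotriene synthesis, was the only one of 18 called, at 57.5, 52.4 and 37 TPM against 15.7, 16.7 and 13, while Alox5ap, its activating protein, was 457, 383 and 278 against 700, 576 and 888 (-0.96 ± 0.21), just under the fold minimum, and leaving out any one library other than G library 3 gave 1 or 2 eicosanoid genes called higher in M. Of the 8 NADPH oxidase genes, Cybb, its catalytic chain, was called, at 218, 242 and 221 TPM in G and 544, 502 and 667 in M (-1.32 ± 0.11).

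Among 32 myeloid transcription factors, 2 were called higher in G, Mxd1 and Cebpd, and 5 in M (median -0.22), where 2.21% and 4.18% of all genes were. Cebpd was under the fold minimum without G library 1 (0.98). Klf4, a factor required for inflammatory monocytes, was 2.3, 2.68 and 4.19 TPM in G and 34, 37.5 and 41.1 in M (-3.27 ± 0.18). Nr4a1, a nuclear receptor on which patrolling monocytes depend, was 40.4, 36.6 and 33 TPM against 114, 114 and 116 (-1.63 ± 0.08), and Cebpa, a factor of myeloid progenitors, 10.1, 10.6 and 9.92 against 45.4, 37.5 and 50.9. The dendritic cell factor Batf3 and the repressor Zeb2 fell by 2.04 and by 1.34. Spi1 and Irf8 had differences under the fold minimum. Spi1, which encodes PU.1, was 279, 247 and 211 TPM in G and 320, 289 and 377 in M (-0.42 ± 0.13), and Irf8, a factor of monocytes, dendritic cells and B cells, was 231, 236 and 218 against 286, 305 and 257 (-0.30 ± 0.08).

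Of 25 pattern recognition genes, Nlrp12 was higher in G and 5 were higher in M (median -0.27), or 4 without M library 3. Of all genes, 2.21% were called higher in G and 4.18% in M. Tlr7, a receptor for single-stranded RNA, was 62, 63.8 and 72 TPM in G and 157, 140 and 178 in M, and the flagellin sensor Naip5 was 16.9, 16.5 and 19.2 against 52.9, 44.9 and 59.3 (-1.52 ± 0.12). C-type lectin receptors were higher in G in 2 of 18 members and in M in 6 (median -0.26), or 5 without M library 3. Clec4d, which pairs with Clec4e to sense mycobacterial glycolipid, was 192, 145 and 129 TPM in G and 21.4, 16.9 and 27.4 in M (2.78 ± 0.20), and Clec4e was 40.5, 33.6 and 28.5 against 14.1, 10.8 and 21.5 (1.13 ± 0.24, and 0.92 without M library 2). Members of the DCIR group went the other way, with Clec4a3 at 89.1, 99.2 and 112 TPM against 362, 297 and 426 and Clec4a1 at 54.6, 62.1 and 67.2 against 222, 185 and 242. Thus neighbouring genes of one receptor cluster were higher in opposite sorts. Of 25 Fc and inhibitory receptors 4 were higher in each direction (median 0.05, and -0.04 without M library 3), among them Cd33, a sialic acid-binding receptor, at 243, 177 and 164 TPM in G and 53.2, 36 and 54.3 in M (2.01 ± 0.20). The Sirpb1 genes, higher in M, are near copies whose reads may be shared. Of 23 adhesion genes none was called higher in G (2.21% of all genes) and 4 were called higher in M (4.18%). One was Spn, the sialophorin CD43, at 25, 27.5 and 28.9 TPM in G and 94.8, 113 and 90.5 in M (-1.83 ± 0.10).

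Genes of the interferon response were higher in M in 10 of 30 members and in G in 1 (median -0.78). Ifitm3, which blocks entry of viruses, was 150, 171 and 222 TPM in G and 967, 859 and 1627 in M (-2.62 ± 0.25). Ifi27l2a was 135, 175 and 215 TPM against 501, 524 and 903, and Mx1, a GTPase that blocks influenza viruses, 7.88, 8.89 and 13.9 against 37.9, 32.6 and 58.2. M library 3 was the highest M library and G library 3 the highest G library for each, and the list summed to 6731.8 TPM in M library 3 against 4635.6 and 4576.7 in M libraries 1 and 2. Without M library 3, 9 members were called higher in M and 2 in G. Ifitm1, of the same family as Ifitm3, went against the others with 266, 213 and 145 TPM in G and 19.2, 13.9 and 24.9 in M (3.35 ± 0.26).

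Transcripts encoded by mitochondrial DNA were higher in G in 11 of 13 members (median 1.27), and in 12 without M library 3. Their sum was 90960 to 94445 TPM in G and 34821 to 38872 in M, 2.52 times as much, without overlap (exact permutation test of the summed TPM, two-sided, p = 0.1, the smallest that 3 against 3 libraries allow). The most abundant, mt-Co1, a subunit of cytochrome oxidase, was 27374, 27487 and 26380 TPM against 10753, 10489 and 9919. Nuclear copies of these genes can share their reads, so the level of a single member is uncertain. Nuclear genes of the respiratory chain did not share this direction, since none of 27 was called, 24 had an adjusted p under 0.05 and were lower in G (25.4% of all genes), none was higher, and the median was -0.46. Cox4i1, another subunit of cytochrome oxidase, was 257, 268 and 243 TPM in G and 411, 414 and 455 in M (-0.73 ± 0.07). All 32 cytosolic ribosomal protein genes were lower in G at an adjusted p under 0.05 and none reached the fold minimum (median -0.53), for example Rplp0 at 626, 626 and 616 TPM against 1034, 1059 and 1100. The medians of these nuclear lists were -0.33 and -0.41 after rescaling and -0.38 and -0.46 with mitochondrial, immunoglobulin and globin genes removed from the totals. No cell cycle gene of 27 was called (median -0.41). By limma 10 were lower in G at an adjusted p under 0.05 (25.4% of all genes). Top2a, a topoisomerase of dividing cells, was 16.9, 19.3 and 18.8 TPM in G and 22.1, 33.2 and 23.1 in M. Of 23 glycolysis and hypoxia genes, 2 were called higher in G and 1 in M, where 2.21% and 4.18% of all genes were. The glucose transporter Slc2a3 was 90.7, 72.1 and 61.4 TPM in G and 23.9, 25.8 and 19.6 in M. The lactate exporter Slc16a3 was 65.4, 49.3 and 42.4 TPM against 19.8, 19.7 and 22.2. The hexokinase Hk2 was higher in M, a call lost with rescaling (-0.93), without mitochondrial, immunoglobulin and globin genes (-0.99) and without M library 1 (-0.98).

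Lists of other cell types were compared in the same way. No B cell gene was called, and by limma 14 of 16 had an adjusted p under 0.05 and were higher in G (median 0.56, and 8.51% of all genes). Without G library 1 or M library 2, 1 B cell gene was called higher in G. Pax5, the factor that keeps B cell identity, was 370, 403 and 412 TPM in G and 200, 243 and 165 in M (0.98 ± 0.14). The immunoglobulin chains Ighm and Igkc overlapped between the sorts, with Ighm between 14152 and 19589 TPM in all 6 libraries. Of 13 plasma cell genes 3 were higher in M, all immunoglobulin gamma constant regions, whose reads can be shared, and 2 were without M library 3. Ighg1 was 23.5, 27.2 and 36.8 TPM in G and 115, 96.8 and 134 in M, while Ighg2b overlapped between the sorts and lost its call without G library 1 (adjusted p = 0.126), G library 2 (0.146), M library 1 (0.138) or M library 3 (0.122).

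T cell genes were higher in M in 7 of 19 members and NK cell genes in 5 of 14, and none of either list was higher in G (medians -0.87 and -0.78). The T cell list summed to between 312.87 and 414.82 TPM in G and to 577.85, 982.97 and 413.19 in M, highest in M library 2 and overlapping G in M library 3. Trac, the constant region of the T cell receptor alpha chain, was 17.9, 14.9 and 28.7 TPM in G and 69.5, 124 and 50.7 in M (-1.89 ± 0.35). Thy1 and Cd3e lost their calls without M library 2 (-0.97 and -0.72) and also without G library 1 or 2 or M library 1 (adjusted p between 0.0661 and 0.121), and Cd3e without G library 3 (0.0603). Gzma, a granzyme, was 6.01, 3.72 and 9.07 TPM against 27.9, 56.1 and 19.5. Without M library 3, 10 T cell genes and 7 NK cell genes were called higher in M. The counts fell to 4 and 2 without G library 1, to 3 and 2 without G library 2, and to 4 and 3 without M library 2. Dendritic cell genes were higher in M in 8 of 16 members, also without M library 3 (median -1.04), including Cd209a, a lectin, at 3.36, 3.23 and 4.77 TPM against 18.6, 14.1 and 21.9, and Siglech, of plasmacytoid cells, at 12.3, 9.02 and 6.85 against 31.7, 29.2 and 44.2. At an adjusted p under 0.05 by limma, 11 dendritic cell genes were lower in G and 1 was higher. The latter, Itgax, was 84.4, 69.4 and 63.8 TPM in G and 54.9, 48.1 and 41.6 in M (0.58 ± 0.13), under the fold minimum.

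Among 18 resident macrophage genes 1 was called, the scavenger receptor Marco, at 9.56, 12.4 and 8.29 TPM in G and 5.51, 5.63 and 1.43 in M (1.21 ± 0.39, adjusted p = 0.0487), below the fold minimum without M library 3 (0.74) and past the adjusted p of 0.05 without any one of the G libraries (0.112, 0.144 and 0.0813 without libraries 1, 2 and 3). C1qa, a complement chain of tissue macrophages, was 710, 810 and 886 TPM in G and 684, 721 and 367 in M, and the adhesion molecule Vcam1 was 657, 681 and 807 against 704, 624 and 344. Both were lowest in M library 3, and in the other 5 libraries the sorts overlapped. At an adjusted p under 0.05 by limma, 3 macrophage genes were lower in G and 1 was higher (25.4% and 8.51% of all genes). The lower ones were Apoe, Adgre4 and Cd68, all under the fold minimum. Apoe, the most abundant member, was 1094, 1177 and 1324 TPM in G and 2155, 2088 and 2631 in M (-0.93 ± 0.12). None of the 13 class II presentation genes was called (median 0.19), and Cd74, the invariant chain, was between 4564 and 5588 TPM in all 6 libraries. By limma 4 of the 13 were higher in G and 1 lower at an adjusted p under 0.05 (8.51% and 25.4% of all genes). No erythroid gene of 17 was called by limma and none had an adjusted p under 0.05, while 1 was called higher in M without G library 3. Of 8 progenitor genes only Flt3 was called, higher in M (4.18% of all genes). Of 12 eosinophil, basophil and mast cell genes that passed the filter, Hdc, which is also on the mature granulocyte list, was higher in G, and the eosinophil ribonuclease Ear1 and the mast cell protease Cpa3 in M. The latter count was 0 without M library 1, 1 without G library 2 or M library 2, and 4 without M library 3. Ccr3, the eotaxin receptor, was 118, 143 and 153 TPM in G and 157, 153 and 82.6 in M.

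Genes of the immediate early and stress response were called higher in G in 2 of 17 members and in M in 1 (median -0.11). Of all genes, 2.21% and 4.18% were. Dusp1, a phosphatase that shuts off MAP kinases, was 330, 210 and 225 TPM in G and 67.4, 56.3 and 66 in M (1.97 ± 0.17), and Atf3, a stress-induced repressor, was 9.6, 7.33 and 6.43 against 19.9, 16 and 21 (-1.19 ± 0.16). Fos, often raised by handling of cells, was 77.1, 49.2 and 48.3 TPM against 71.7, 62.2 and 74.1, with overlapping libraries. None of 18 genes of survival and cell death was called by limma. At an adjusted p under 0.05, 1 was higher and 7 were lower in G (8.51% and 25.4% of all genes). Mcl1, a survival factor on which neutrophils depend, was 473, 438 and 402 TPM against 423, 425 and 431, and Bak1, a pore-forming mediator of apoptosis, was 27.6, 31.3 and 28.4 against 48.4, 55.3 and 55.4 (-0.84 ± 0.08). Of 8 genes whose mutations cause lymphocyte deficiency in mice, 5 passed the filter and none was called. Il2rg, the common gamma chain, was between 235 and 305 TPM in all 6 libraries and Prkdc, the DNA repair kinase mutated in scid mice, between 8.35 and 11.2, values that do not show whether a transcript carries a mutation. Of 16 stromal and endothelial genes 4 passed the filter, and Acta2, smooth muscle actin, was 15.6, 12.7 and 11.9 TPM in G and 2.41, 1.46 and 3.14 in M (2.13 ± 0.21). It was 1 of 2 members called higher in G, a count that was 1 without M library 3 or G library 2. The precursor B cell list had 3 of 8 members above the filter, and the 1 called higher in M was Cd93, a surface protein that monocytes also carry, at 9.18, 9.6 and 10.1 TPM against 39.7, 31.3 and 50.8. A second member was called higher in M without G library 3 or M library 3.

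**Figure D4:**
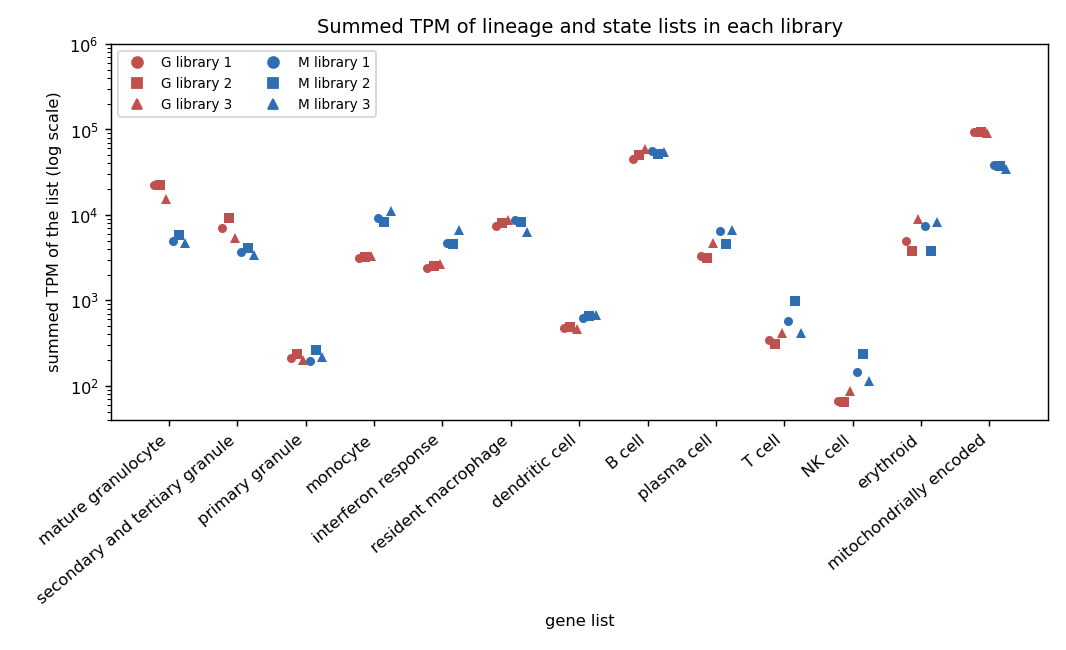
Summed TPM (log axis) of 13 gene lists in each of the 6 libraries (red, G; blue, M; circles, squares and triangles are libraries 1, 2 and 3). B cell genes sum to between 45374 and 59823 TPM in all libraries, T and NK cell genes are highest in M library 2, and macrophage genes are lowest in M library 3.

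The last comparison asked whether the difference between G and M sorts in BALB/c spleen was the same in other mice and sites, from the difference of the G minus M contrasts over 18 libraries. Against newborn marrow, 1306 of 16065 genes (8.13%) had different contrasts, 225 with a higher (1.4%) and 1081 with a lower (6.73%) G minus M value in BALB/c spleen. Precursor B cell genes were among the latter in 8 of 8 members tested, B cell genes in 11 of 16 and stromal and endothelial genes in 13 of 15. Their median log2 fold changes in marrow were 3.19, 2.16 and 2.05, and in BALB/c spleen -0.21, 0.56 and 0.02. Genes entered this test at 1 TPM or more in any 3 of the 18 libraries. In the 6 BALB/c libraries alone, 3 of 8 precursor B cell genes and 4 of 16 stromal and endothelial genes passed the filter. The other members tested passed with the help of libraries from other sites. The counts and BALB/c medians of these lists therefore rest largely on genes near the floor in BALB/c spleen. Of 24 monocyte genes 6 had a higher G minus M value in BALB/c spleen, and of 20 mature granulocyte genes 2.

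Both comparisons share the BALB/c libraries, and strain, organ and the labelled immune deficiency differ from marrow together and cannot be told apart, while an age is labelled for the marrow mice only. The panel of 12 genes followed at each site holds Cxcr2, Mmp9, F13a1, Ccr2 and Cx3cr1, which were among the largest differences in these BALB/c libraries. That choice favours larger contrasts in BALB/c spleen than elsewhere. Among the 12 genes, Cxcr2 was the one whose contrast differed from marrow in the fit of 18 libraries without a replicate block. It was 386, 328 and 334 TPM in marrow G and 157, 103 and 116 in marrow M, so the contrast was 1.49 ± 0.60 there and 4.92 ± 0.60 in BALB/c spleen, a difference of 3.43 ± 0.85 (adjusted p = 0.0135). The levels in the G sorts were of the same order, and those in the marrow M sort were above those in the splenic M sort. Mmp9 was 2236, 2116 and 2235 TPM in marrow G and 828, 583 and 694 in marrow M, and its difference of 2.45 ± 0.80 did not pass (adjusted p = 0.056). Elane was 25.3, 42.6 and 48.5 TPM in marrow G and 341, 427 and 386 in marrow M, far above its splenic levels, with a contrast of -3.32 ± 0.77 there and -3.64 ± 0.77 in BALB/c spleen (adjusted p of the difference = 0.889). Ccr2 had contrasts of -5.55 ± 0.55 and -5.56 ± 0.55 (difference -0.01 ± 0.77).

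Against APCmin/+ spleen, 62 genes (0.386%) had different contrasts and none of the 12 passed. Strain, the Apc mutation and the labelled immune deficiency differ together between the BALB/c and APCmin/+ mice and cannot be told apart. The APCmin/+ libraries were uneven in both sorts, and libraries with the same number deviated together (correlations of deviations 0.569, 0.38 and 0.423 across genes), so the fit with a replicate block is given beside this one. With the block 424 genes differed, 258 with a higher and 166 with a lower G minus M value in BALB/c spleen. In the M libraries Ccr2 was 89.9, 30.1 and 296 TPM and Cxcr2 was 55.5, 391 and 339. In the G libraries Ccr2 was 8.13, 13.4 and 11.9 TPM and Cxcr2 was 276, 567 and 851. The Cxcr2 contrast was 1.38 ± 0.60 in APCmin/+ spleen, a difference of 3.54 ± 0.85 (adjusted p = 0.0836), and that of Mmp9 was 0.86 ± 0.57, a difference of 3.25 ± 0.80 (adjusted p = 0.0932). With all 39 libraries in the fit, which share 1 estimate of the spread, both differences from APCmin/+ spleen passed (adjusted p = 0.00309 for Cxcr2 and 0.0187 for Mmp9), as did that of Mmp9 from marrow (0.0232). S100a8 had contrasts of 1.84 ± 0.50 in BALB/c spleen and -0.25 ± 0.50 in APCmin/+ spleen (adjusted p of the difference = 0.247), and was 7221, 38461 and 16619 TPM in the APCmin/+ G libraries and 9300, 32700 and 25437 in the M libraries. With the replicate block, the adjusted p was 0.00971 for Cxcr2, 0.0018 for Mmp9, 0.00449 for S100a8, 0.00434 for the granulocyte antigen gene Ly6g and 0.045 for Elane, so that 5 of the 12 genes passed. The count of 62 ranged from 29 without G library 2 of BALB/c spleen to 76 without M library 2, with 39 without G library 1 and 42 without M library 3, and 1992 genes had an unadjusted p under 0.05.

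**Figure D5:**
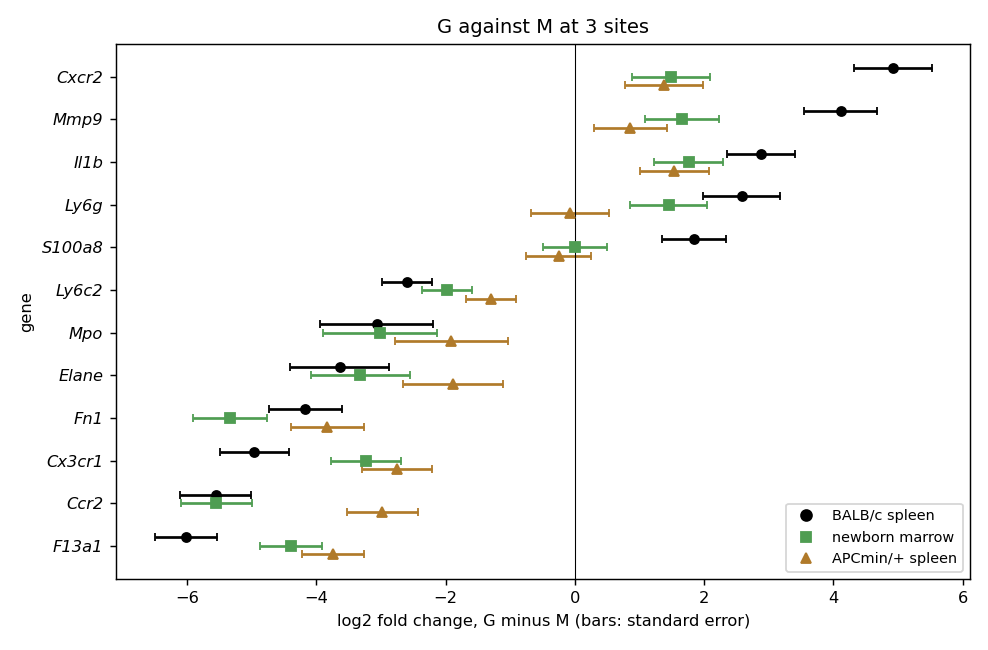
Log2 fold change (G minus M) with its standard error of the 12 genes followed at 3 sites, from 1 fit of 18 libraries. BALB/c spleen (black circles) has the highest values for Cxcr2 (4.92) and Mmp9 (4.11) and the lowest for F13a1 (-6.02) and Cx3cr1 (-4.96). These genes were among the largest differences in the BALB/c libraries, which favours larger contrasts there. In this fit, which has no replicate block, the difference from newborn marrow passed the test for Cxcr2 only.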

How the data were processed

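Polyadenylated RNA of sorted cells was sequenced as single reads of 75 bp on a NextSeq 500 from TruSeq stranded libraries, per the labels' protocols. Per the submitters' processing notes, bcl2fastq 2.18 wrote the reads (the labels' protocols name another release), STAR 2.6.1c aligned them to mm10 and RSEM quantified genes. Neither the RSEM version nor the gene annotation is given in the sources used here. The authors' deposited table holds TPM for 53465 genes in 39 libraries, each summing to 1000000. Depth is therefore unknown, and no pair of libraries was identical. Symbols turned into dates (26) were restored, and 220 entries with repeated symbols were kept apart by identifier, so that Itgam, Aldoa and Lilrb4a of the lists were not counted.

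Here, genes that reached 1 TPM in 3 or more of the 6 libraries (14268) were tested as log2(TPM + 1) with limma 3.58.1 (R 4.3.3), fitting 1 mean for each sort, a variance trend, 4 residual degrees of freedom and Benjamini-Hochberg adjustment over all of them. Called means an adjusted p under 0.05 together with a difference of 2-fold or more. Differences between sites used 18 libraries with 1 mean per group, and genes that reached 1 TPM in 3 or more of these libraries. Same-numbered G and M libraries deviated together in APCmin/+ spleen, with every correlation of deviations over 0.1 (from the data, since the labels give only numbers), so results of that comparison are also given with the number within each site as a block. The fit was tested on simulated data. Summaries used Python 3.11.15 with pandas 2.3.3 and numpy 2.4.6. Samples were grouped by title.

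The members, the 41 gene lists and the tests were chosen with earlier results of these data known. Named genes are the 4 markers, the 12 highest and 12 lowest log2 fold changes among non-overlapping called genes with a higher mean of at least 20 TPM (no provisional symbols, receptor segments or pseudogenes), up to 6 members of each list by level and 6 more by change at 5 TPM or above, a panel of 12 genes for the sites, and genes that decide a statement on a list. Of the genes this gives, the text names a part, and some members of the lists are not reported here by name. Others were chosen after their values were seen (in the report Fpr2, Cxcr1, C3ar1, Cebpd, Cpa3, Fpr1, Arg1, Nos2, Ido1, Il10 and Ddx3y). Gene positions come from GENCODE for GRCm38. Alternatives were a pseudocount of 0.1, no filter, a filter at 5 TPM, median-ratio rescaling, TPM without mitochondrial, immunoglobulin and globin genes, all 39 libraries in the fit, no fold minimum, a replicate block, and each library left out.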

Additional observations from a re-analysis of the deposited data

Results flagged for a closer look

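The contrast of the G and M sorts differed between BALB/c spleen and newborn marrow for 1 of the 12 genes followed at each site, in the fit of 18 libraries without a replicate block. Mmp9 also passed with all 39 libraries in the fit, and Mmp9, S100a8 and Ly6g did with a replicate block. Cxcr2 had a log2 fold change (G minus M) that was 3.43 higher in BALB/c spleen than in marrow (SE 0.85, adjusted p = 0.0135, limma over 18 libraries). All 3 G libraries exceeded all 3 M libraries at both sites. Cxcr2 was among the largest differences in the BALB/c libraries, which favours a larger contrast there. The M levels were 7.88, 3.69 and 13.8 TPM in BALB/c spleen and 157, 103 and 116 in marrow. Strain, organ and the labelled immune deficiency differ between these mice and cannot be told apart. An age is labelled for the marrow mice only (newborn P7).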

How the results depend on the processing

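The count of 911 called genes ranged from 848 without G library 1 to 970 without M library 2, that of genes higher in G from 273 to 339 and that of genes higher in M from 572 to 633. It was 1122 with a pseudocount of 0.1, 878 without a filter, 856 with median-ratio rescaling, 886 without mitochondrial, immunoglobulin and globin genes and 895 with all 39 libraries. A filter at 5 TPM left fewer genes to test and 209 higher in G. Without a fold minimum 4833 genes passed, 1214 higher in G and 3619 in M. Genes higher in G made up 34.6% of calls, 42.5% with rescaling and 38.8% without mitochondrial, immunoglobulin and globin genes.

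With a replicate block, 917 genes were called, 315 higher in G and 602 in M, 901 of them shared. Deviations of same-numbered libraries correlated at 0.0951, 0.0749 and 0.0598, each the highest of its library, which is a hint from the data and not from the design, so the numbers were not taken to pair the BALB/c libraries. In marrow they were 0.0935, 0.149 and 0.0897 over the genes of the comparison between sites. The block gave 1655 different contrasts against marrow and 424 against APCmin/+ spleen, and Mmp9, S100a8 and Ly6g then also differed from marrow (adjusted p = 0.000989, 0.00111 and 0.029).

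The difference from APCmin/+ spleen, 62 genes, was 36 with a pseudocount of 0.1 and 216 with all 39 libraries, and 29 to 76 with 1 library left out. That from marrow, 1306 genes, was 1107 to 1305 with 1 library left out. The cause was not tested.

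Of 125 called genes named here, 108 kept their call under every alternative, 17 lost it under at least 1 and none changed direction. Of the 32 not called, with Serpinb1a not counted, 4 passed under some alternative and 7 changed direction. These were Ccr3 (-0.17), Cd74 and Xist (-0.02) without M library 3, Cd74 without G library 2, Ighm with rescaling (0.10) or without G library 1, Il2rg with rescaling (0.05) or without M library 2, Mcl1 without G library 1, and Prkdc with rescaling (0.08), without mitochondrial, immunoglobulin and globin genes (0.03) or without M library 2. With 1 library left out, Cd74 ranged from -0.08 to 0.07, Ighm from -0.14 to 0.10, Il2rg from -0.16 to 0.03, Mcl1 from -0.02 to 0.09 and Prkdc from -0.14 to 0.05. The difference from marrow in the contrast of Ccr2 turned to 0.06 with a pseudocount of 0.1 and 0.15 with rescaling, and ranged from -0.25 to 0.28 with 1 library left out. That of Mpo turned to 0.09 with rescaling and ranged from -0.30 to 0.27. With rescaling, the summed TPM of B cell genes turned from -0.08 to 0.05 (log2 G over M) and that of mitochondrially encoded genes moved from 1.34 to 1.46. TPM keep no depth, so the precision of low values is unknown.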

Other observations

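Several gene families, of which only some members are on the lists above, also divided between the sorts. They were chosen after their values were seen, so their counts are given as descriptions. Of 10 genes of the MS4A family of membrane proteins, 7 were called higher in the M sort and none in the G sort (median log2 fold change -1.67). Ms4a6d was 21.6, 24.8 and 26 TPM in G and 232, 193 and 336 in M, and Ms4a8a was 2.55, 2.41 and 4.06 against 25.7, 27.5 and 62. Ms4a1, which encodes the B cell antigen CD20, was 482, 489 and 464 TPM against 362, 404 and 315 and was not called. The neighbouring membrane genes Tmem176a and Tmem176b were higher in M, the latter at 13.3, 12.7 and 17.8 TPM against 198, 151 and 248 (-3.67 ± 0.20).

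Schlafen genes, regulators of immune cell growth, went in both directions. Slfn4 was 305, 301 and 283 TPM in G and 46.4, 42.3 and 86.5 in M (2.40 ± 0.25), while Slfn5 was 31.8, 40.8 and 48 against 105, 95.8 and 129 (-1.44 ± 0.17). Of 10 genes of the Ifi200 cluster of nucleic acid sensors, 4 were higher in M and none in G, with Ifi205 at 1.44, 1.38 and 4.05 TPM against 35.3, 33.8 and 88. Of 19 histone genes with symbols starting in Hist, 10 were called higher in G and none in M (median 1.19), where 2.21% and 4.18% of all genes were. The libraries were made from polyadenylated RNA, so these values cover polyadenylated histone transcripts. Hist1h2bc was 22.9, 20.3 and 15.2 TPM against 3.61, 2.99 and 2.68 (2.31 ± 0.17), and the linker histone Hist1h1c was 42.2, 42.9 and 30.1 against 15.7, 16 and 11.6 (1.35 ± 0.17). In the same libraries no cell cycle gene was called.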
